A study of Homo sapiens with 2 samples.

Results

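MicroRNA host genes are genes whose primary transcript contains the hairpin of a microRNA (miRNA). The genes described here are the long non-coding RNA (lncRNA) genes named as such, meaning autosomal genes of the count tables that GENCODE 44 classes as lncRNA and whose symbol starts with MIR and ends in HG. There were 76 of them among the 57773 genes in the tables and among 12589 autosomal lncRNA genes. They were examined in RNA sequencing data from REH and 697, established human lines of acute lymphoblastic leukemia of B-cell precursors (BCP-ALL), of which 1 library each was sequenced. REH is positive for ETV6/RUNX1, and its other ETV6 allele is deleted, whereas 697 has no ETV6/RUNX1. Both were grown in RPMI with serum, and the labels name no drug or knockdown. The comparison asks which host genes differ between an ETV6/RUNX1-positive and an ETV6/RUNX1-negative line, and with 1 culture of each line the effect of the fusion cannot be told apart from any other difference between the lines.

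The REH library held 63954817 reads, of which 45188375 (70.7%) were counted in genes, and the 697 library held 58948890 reads, of which 41097497 (69.7%) were counted in genes. Reads mapping to several places, which are not part of the gene counts, took 10.8% of the REH library and 15.4% of the 697 library. All 10 B-lineage markers examined reached 10 reads in at least 1 library, with a summed level of 4276 CPM (scaled reads per 1e6 reads in genes) in REH and 8081 in 697, although VPREB1, a surrogate light chain gene, had 3 reads in REH and 10039 in 697. The defining T-cell genes CD3D and CD2, the globin genes HBB and HBA1, the stromal collagen genes COL1A2 and COL3A1 and the myeloid gene S100A8 had 0 reads in both libraries. Other genes of these lists were present. CD3E had 45 reads in REH and 0 in 697, TRAT1 had 14 and 0, and CD8A had 0 and 10. The erythroid gene ALAS2 had 21 and 13, the collagen gene COL1A1 had 477 and 387, and the pericyte gene PDGFRB had 1197 and 2005. By contrast, the myeloid gene MPO had 12643 reads in REH and 12 in 697. Of the 6 myeloid markers 2, MPO and ITGAM, were past a log2 ratio of 2 toward REH. CD14 had 29 reads in REH and 8 in 697 (1.35), and CSF1R went the other way, with 30 and 61 reads (-1.46). The summed level of the 4 compared was 261 CPM in REH, 252 CPM of it from MPO, and 2.19 CPM in 697. The part of this difference in the host gene results was not tested.

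A miRNA is cut from its host transcript in the nucleus as a hairpin, exported, and trimmed to a mature strand of which bases 2 to 8, the seed, pair with target mRNAs. A host transcript can carry the hairpin in an exon or in an intron, and only the spliced or unspliced host RNA, not the mature miRNA, is counted in these libraries. Several hosts give rise to miRNAs that are known from blood cells. miR-142 is made mainly in blood cells, miR-155 and miR-146a are induced in activated lymphocytes and myeloid cells, miR-181 acts in lymphoid differentiation, and the miR-17 to miR-92 cluster supports survival of B-cell precursors and is amplified in lymphoma. By GENCODE 44 and RefSeq annotation (GRCh38.p14), 74 of the 76 host genes contained at least 1 hairpin on their own strand, with 122 hairpins in all, 61 in exons and 61 in introns.

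The mature sequences of the miRNAs whose hosts were best covered are given below, 5′ to 3′ and from RefSeq, with the seed in capitals, because the host genes are of interest for what these strands are. For miR-142, whose hairpin fills part of an exon of MIR142HG, both strands are shown since both are known to be functional. The 3 strands from MIR155HG, MIR3142HG (the host of miR-146a) and MIR210HG follow.
hsa-miR-142-3p: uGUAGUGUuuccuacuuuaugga
hsa-miR-142-5p: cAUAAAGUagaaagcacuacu
hsa-miR-155-5p: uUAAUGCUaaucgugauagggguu
hsa-miR-146a-5p: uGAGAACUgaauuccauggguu
hsa-miR-210-3p: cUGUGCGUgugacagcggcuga

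MIR17HG holds 6 hairpins in its exons, and their strands fall into a few seed families. miR-17-5p and miR-20a-5p share the seed AAAGUGC, miR-19a-3p and miR-19b-3p share GUGCAAA, and miR-18a-5p and miR-92a-3p have seeds of their own within this cluster.
hsa-miR-17-5p: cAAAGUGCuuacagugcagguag
hsa-miR-20a-5p: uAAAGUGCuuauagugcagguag
hsa-miR-18a-5p: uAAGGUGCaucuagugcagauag
hsa-miR-19a-3p: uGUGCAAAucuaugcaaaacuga
hsa-miR-19b-3p: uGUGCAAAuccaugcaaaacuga
hsa-miR-92a-3p: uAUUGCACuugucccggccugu

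Between different host genes, a single seed was shared among those with at least 100 reads in a library. let-7c-5p, whose hairpin lies in an exon of MIR99AHG on chromosome 21, and miR-4458, whose hairpin lies in an exon of MIR4458HG on chromosome 5, both have the let-7 seed GAGGUAG, which 11 mature names of the RefSeq table carry. MIR99AHG also holds miR-99a and miR-125b-2. In all, the 41 mature names that the RefSeq table held for hosts past 100 reads had 37 different seeds.
hsa-let-7c-5p: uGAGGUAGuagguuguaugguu
hsa-miR-4458: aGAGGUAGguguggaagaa
hsa-miR-99a-5p: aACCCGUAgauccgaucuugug
hsa-miR-125b-5p: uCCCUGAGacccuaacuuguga

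The host gene with the largest difference toward REH, MIR3667HG, holds miR-3667 in an intron, and the next best covered host that was higher in REH, MIR130AHG, holds miR-130a in an intron. Of miR-130a only the strand hsa-miR-130a-5p was in the RefSeq table used, so its other strand is not shown. MIR600HG, the second most abundant host per length in both libraries, holds miR-600 in an exon.
hsa-miR-130a-5p: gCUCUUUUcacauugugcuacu
hsa-miR-600: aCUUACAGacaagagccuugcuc

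Most host genes had few or 0 reads in these lines. Of the 76, 26 (34.2%) had 0 reads in both libraries, 21 had between 1 and 9 reads at most, and 29 (38.2%) reached 10 reads in a library. All 29 reached 10 reads in REH, and 22 of them also did so in 697. The share with at least 10 reads was 23.6% among the 12513 autosomal lncRNA genes that are no miRNA host genes. The floor of 3 reads corresponds to 0.0597 CPM in REH and 0.0812 CPM in 697, but a pooled count of 0 does not by itself mean a level under it, because reads on overlapping exons were not counted. Of the 26, 24 also had 0 reads in the counts per strand, MIR34AHG had 5 there in REH and 0 in 697, and MIR497HG, described further on, had many more. Among the 14 hosts of miRNAs studied in blood cells, 12 reached 10 reads, and the exceptions MIR34AHG, the host of the p53-induced miR-34a, and MIR100HG had 0 pooled reads in both libraries. Among the 16 hosts of miRNAs that are restricted to other tissues, 3 did so. They were MIR217HG (19 reads in REH, 9 in 697), MIR9-1HG (16 and 1) and MIR133A1HG (13 and 1). MIR133A1HG and MIR1-1HG both host the muscle miRNA miR-1, and MIR1-1HG had 0 reads in both libraries. So did the hosts of the liver miRNA miR-122 (MIR122HG) and the neuronal miRNA miR-137 (MIR137HG).

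Level within a library can be compared between genes only per length, here as CPM per kb of annotated exon. MIR142HG, at chr17:58330879-58332523 on the minus strand of GRCh38, was the most abundant host gene in both libraries by this scale. Its level was 42.4 CPM per kb in REH and 24.6 CPM per kb in 697, at percentile 99.6 and 99.2 of the autosomal lncRNA genes that reached 10 reads there. MIR600HG at chr9:123109494-123115477 came second in both, with 10.6 and 12.1 CPM per kb. It overlaps STRBP on the same strand, with 4.24% of its exon length shared. STRBP had 10302 reads in REH and 10922 in 697. Reads from STRBP RNA that reaches beyond the exons of STRBP cannot be told apart from reads of MIR600HG. After MIR142HG and MIR600HG the order differed between the libraries. In REH it went on with MIR3142HG (7.19 CPM per kb), MIR130AHG (5.52) and MIR3667HG (3.73), and in 697 with MIR210HG (8.82), MIR155HG (6.43), MIR4453HG (3.84) and MIR3142HG (3.75). The last of these lie within counting error of each other. MIR3667HG has an annotated exon length of 7535 bases but a longest transcript of 2816 bases, and its level in REH was 9.99 CPM per kb when the latter was used, which put it behind MIR142HG and MIR600HG. MIR663AHG moved too, from 1.35 to 5.93 CPM per kb in REH and from 1.06 to 4.64 in 697, where it passed MIR4453HG and MIR3142HG. The top 2 in each library stayed in place with the length of the longest transcript. Exon lengths are those of GENCODE 44, which may hold exons that the counting annotation lacked.

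**Figure D1:**
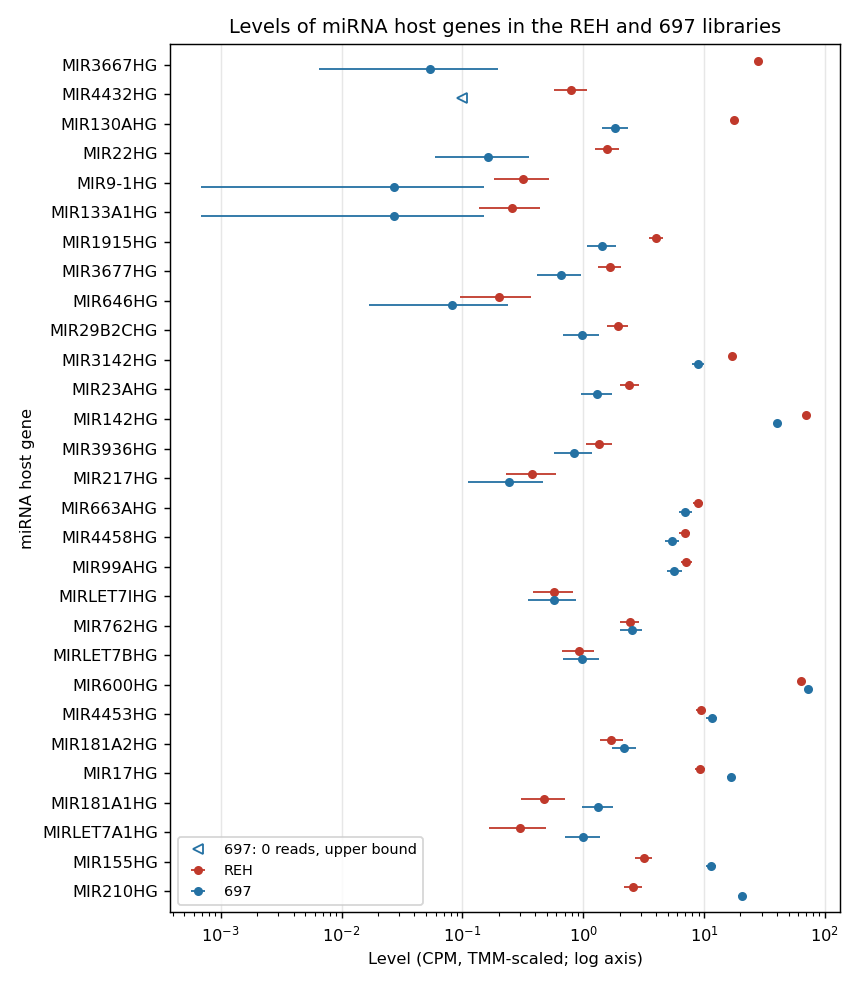
Levels of the 29 miRNA host genes that reached 10 reads in a library, as TMM-scaled CPM on a log axis. Red points are the REH library, blue points the 697 library, bars are 95% counting intervals, and the open triangle is the upper bound for MIR4432HG in 697 (0 reads); MIR142HG and MIR600HG sit farthest right in both libraries, and the libraries separate most at the top (MIR3667HG, 28.1 CPM in REH, 0.0541 CPM in 697) and at the bottom (MIR210HG, 2.59 and 20.5 CPM).

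To compare the libraries, the log2 ratio of REH over 697 was computed for each gene after 0.5 reads were added, and genes with a ratio of 2 or more in size were called higher in the respective line. With 1 library per line there is no replicate check and no p-value, and the intervals cover counting error only. Of the 29 host genes compared, 6 (20.7%) were higher in REH, 1 (3.45%) was higher in 697 and 22 passed neither side. Over all 19145 genes compared, 12.5% were higher in REH and 8.15% in 697, and over the 2985 autosomal lncRNA genes 17.2% and 10.1%. The share of host genes toward REH was therefore close to that of lncRNA genes in general. The 1 host gene toward 697 is too few to be read against the background. The host genes were better covered than other lncRNA genes, their better covered library having a median of 121 reads against 44 for lncRNA genes, and the size of a ratio is less certain at few reads. The median log2 ratio was 0.59 over the host genes, 0.29 over autosomal lncRNA genes and 0.05 over all genes. In 19 of 29 the ratio was above 0 and in 10 below, and the counting interval lay wholly above 0 in 16 and wholly below in 7. These counts lean on how genes entered the comparison. All 29 reached 10 reads in REH, 7 of them in REH only and 0 in 697 only, and a gene that entered through REH alone had a ratio above 0 (7 of 7), which includes 5 of the 6 called higher in REH. Among the 22 that reached 10 reads in both libraries, 12 had a ratio above 0, 1 was called toward REH and 1 toward 697, and the median was 0.17. With a minimum of 1 read the calls were 7 toward REH and 6 toward 697, with a median of 0.17 over 50 host genes. The summed level of the 29 was 265 CPM in REH against 216 CPM in 697.

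**Figure D2:**
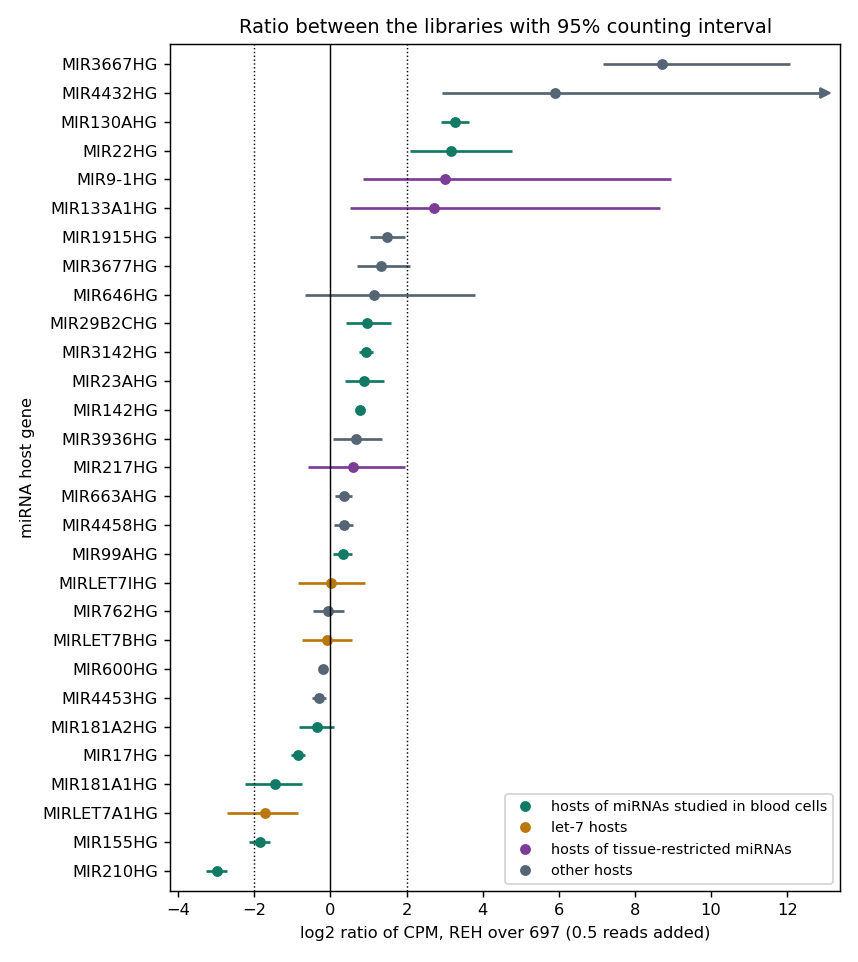
log2 ratio of CPM, REH over 697, for the 29 host genes compared, with the 95% counting interval as a bar and the class of the hosted miRNA as color. Dotted lines mark the threshold of 2 in size; 6 genes lie right of it and MIR210HG alone lies left of it, and the arrow marks the interval of MIR4432HG, which has no upper end because 697 had 0 reads.

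MIR3667HG showed the largest ratio among the host genes. This gene at chr22:49414524-49657542, on the minus strand, spans a long stretch of chromosome 22 in which no protein-coding gene lies within 100 kb in the annotation used, and the role of miR-3667 is poorly known. It had 1414 reads (28.1 CPM) in REH and 2 reads (0.0541 CPM) in 697. Its ratio on the log2 scale was 8.70 with a counting interval of 7.17 to 12.07, and the wide upper end comes from the 2 reads in 697. The reads in REH were split evenly over the strands, 687 on the strand of the gene and 727 on the opposite one, as they were for genes in general in these libraries, where 50.1% and 50.2% of strand-assigned reads lay on the gene strand. In bulk RNA, fewer cells with a transcript and less transcript per cell cannot be told apart.

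MIR130AHG, at chr11:57638024-57652790 on the plus strand, hosts miR-130a, which is expressed in blood progenitors. It had 895 reads (17.8 CPM) in REH and 68 reads (1.84 CPM) in 697. The level was 9.61-fold higher in REH, with a log2 ratio of 3.26 and an interval of 2.92 to 3.65. Of its exon length 6.11% is shared with YPEL4 on the opposite strand and 3.16% with CLP1 on the same strand, and reads there are ambiguous and were not counted. YPEL4 had 985 reads in REH and 195 in 697, and CLP1 had 976 and 533. Where these genes overlap MIR130AHG outside their own exons, reads from their unspliced RNA cannot be told apart from reads of MIR130AHG.

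The remaining 4 host genes past the threshold toward REH were low in both libraries. MIR22HG, the host of miR-22, had 79 reads in REH and 6 in 697, a log2 ratio of 3.17 (2.09 to 4.76). It overlaps WDR81 on the opposite strand, which had 2279 reads in REH and 1140 in 697, a log2 ratio of 0.55. MIR4432HG, which lies 10692 bases from BCL11A on the same strand, had 40 reads in REH and 0 in 697, so its level was at least 9.80-fold higher in REH against a floor of 3 reads. MIR9-1HG, a host of the neuronal miR-9, had 16 reads in REH against 1 in 697, with a ratio of 3.02 (0.87 to 8.95). MIR133A1HG, a host of the muscle miRNAs miR-133a and miR-1, had 13 and 1 reads (2.73, 0.52 to 8.67). The intervals of the last 2 reached below the threshold. Both dropped under it, to 1.36 and 1.14, when 5 reads were added in place of 0.5. MIR133A1HG lies inside MIB1, which is transcribed from the opposite strand and had 39930 reads in REH against 5707 in 697, a log2 ratio of 2.36. Since these libraries did not separate the strands, reads from unspliced MIB1 RNA and from MIR133A1HG cannot be told apart. The same holds for unspliced WDR81 RNA and MIR22HG where the 2 genes overlap.

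MIR210HG was the only host gene past the threshold toward 697. It lies at chr11:565657-568457 on the minus strand and hosts miR-210, the miRNA best known for its induction by hypoxia. It had 130 reads (2.59 CPM) in REH and 757 reads (20.5 CPM) in 697. The level was 7.90-fold higher in 697, with a log2 ratio of -2.98 and an interval of -3.27 to -2.72. The hairpin gene MIR210, annotated in an intron of the host in GENCODE 44 and listed on its own in the tables, had 2 reads in REH and 14 in 697. The neighbors on both sides did not go with it, since RASSF7, 1632 bases away, had a log2 ratio of 1.08 and PHRF1, 8013 bases away, one of 0.16.

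MIR155HG came next in this direction without passing the threshold. The gene, first known as BIC, lies at chr21:25561810-25575168 on the plus strand and carries miR-155 in an exon. It had 159 reads (3.16 CPM) in REH and 422 reads (11.4 CPM) in 697. This was 3.60-fold higher in 697, with a log2 ratio of -1.85 and an interval of -2.12 to -1.59. MIR17HG, at chr13:91347686-91397592 on the plus strand, had 468 reads (9.31 CPM) in REH and 621 reads (16.8 CPM) in 697, a log2 ratio of -0.85 (-1.03 to -0.68). Both genes were thus lower in REH than in 697 beyond counting error. The interval of MIR155HG reached past the threshold and that of MIR17HG did not.

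The blood-cell hosts MIR142HG and MIR3142HG went the other way by a smaller step. MIR142HG had 3506 reads (69.7 CPM) in REH and 1493 reads (40.4 CPM) in 697, with a log2 ratio of 0.79 (0.70 to 0.88). MIR3142HG at chr5:160438594-160487426, whose exon holds miR-146a, had 859 reads (17.1 CPM) and 329 reads (8.90 CPM), with a log2 ratio of 0.94 (0.76 to 1.13). MIR23AHG, the host of miR-23a, miR-27a and miR-24-2, which act in myeloid commitment, had 121 and 48 reads and a log2 ratio of 0.88 (0.40 to 1.40). MIR29B2CHG, the host of miR-29b-2 and miR-29c, had 97 and 36 reads and a log2 ratio of 0.97 (0.42 to 1.58). For these 4 genes the interval lay above 0 and under 2. MIR23AHG overlaps ZSWIM4 (log2 ratio 0.57) and MIR29B2CHG overlaps CD46 (-0.81), both on the opposite strand. Where they overlap, reads from unspliced RNA of ZSWIM4 and CD46 cannot be told apart from reads of the hosts.

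The 2 hosts of miR-181a and miR-181b paralogs did not share a direction beyond counting error. MIR181A1HG on chromosome 1 had 24 reads in REH and 49 in 697, with a log2 ratio of -1.46 (-2.24 to -0.74). MIR181A2HG on chromosome 9 had 86 and 81 reads, with a log2 ratio of -0.36 whose interval, -0.81 to 0.10, included 0. MIR99AHG, which covers chr21:15928296-16646364, had 358 reads (7.12 CPM) in REH and 210 reads (5.68 CPM) in 697, a log2 ratio of 0.32 (0.08 to 0.58). The size of this ratio depended on the processing. It was 0.10 on the strand of the gene, 0.58 on the opposite one and 0.63 by totals without further scaling. Over the 12 blood-cell hosts compared, 7 had a ratio above 0 and 5 below, with a median of 0.56, and 2 (16.7%) were past the threshold toward REH and 1 (8.33%) toward 697, close to the 17.2% and 10.1% of lncRNA genes.

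The 3 host genes named for let-7 miRNAs, which restrain growth-promoting genes such as HMGA2, were all detected at a low level. Hairpins of let-7 also lie in MIR99AHG (MIRLET7C) and MIR100HG (MIRLET7A2), which were classed with the blood-cell hosts. MIR100HG had 0 reads in both libraries. MIRLET7IHG had 29 reads in REH against 21 in 697, with a ratio of 0.01 (-0.84 to 0.90), and MIRLET7BHG had 46 and 36 reads (-0.09, -0.75 to 0.58). Neither ratio differed from 0 beyond counting error, and the intervals leave room for a difference of up to almost 2-fold either way. MIRLET7A1HG had 15 reads in REH and 37 in 697, with a log2 ratio of -1.72 (-2.72 to -0.85). The pooled count holds a small part of the reads at this gene, since the counts per strand were 70 and 67 in REH and 111 and 101 in 697, with log2 ratios of -1.09 on the strand of the gene and -1.01 on the opposite one. None of the 3 passed the threshold. The hairpin gene MIRLET7D, within an exon of MIRLET7A1HG, was listed on its own with 13 reads in REH and 22 in 697. It and MIR210 were the only 2 of 73 listed hairpin genes inside host genes that reached 10 reads.

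Of the 11 host genes compared outside these classes, MIR3667HG and MIR4432HG were past the threshold toward REH and 0 toward 697. MIR600HG had 3199 reads (63.6 CPM) in REH and 2677 reads (72.5 CPM) in 697, with a log2 ratio of -0.19 (-0.26 to -0.11), which became 0.12 when libraries were compared by their totals without further scaling. MIR4453HG had 471 and 426 reads and a log2 ratio of -0.30 (-0.49 to -0.11), which became 0.01 by totals. These ratios are therefore within the uncertainty of the scaling. MIR663AHG (448 and 258 reads, log2 ratio 0.35, 0.13 to 0.58) and MIR4458HG (348 and 201 reads, 0.35, 0.09 to 0.61) were slightly above 0. By totals their ratios were 0.66 and 0.65. MIR1915HG had 202 reads (4.02 CPM) in REH and 53 reads (1.43 CPM) in 697, and its log2 ratio of 1.48 (1.04 to 1.95) was the largest of those under the threshold. MIR3677HG followed with 84 and 24 reads and a ratio of 1.34 (0.69 to 2.08). MIR3936HG had 68 and 31 reads and a ratio of 0.68 (0.06 to 1.35). For MIR646HG, with 10 and 3 reads and a ratio of 1.14, the interval of -0.66 to 3.79 included 0, as it did for MIR217HG among the hosts of tissue-restricted miRNAs (19 and 9 reads, 0.59, -0.58 to 1.96).

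MIR762HG had 122 reads (2.43 CPM) in REH and 93 reads (2.52 CPM) in 697, with a log2 ratio of -0.05 (-0.45 to 0.35). Its direction depended on the way of counting. The ratio was 0.45 from reads on the strand of the gene, 0.52 from reads on the opposite strand and 0.25 from unscaled totals. Part of its exon length, 4.30%, is shared with BCL7C and 25.9% with an unnamed lncRNA gene, both on the opposite strand.

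Such overlaps bear on how a host gene is counted. The pooled counts leave out every read that falls on exons of more than 1 gene on either strand, whereas the counts per strand leave out only overlaps on the same strand. For most host genes the sum of the strand counts equaled the pooled count within a few reads, as for MIR142HG, MIR155HG and MIR600HG. For MIR762HG the sum was 6.62 times the pooled count in REH and 4.63 times in 697, and for MIRLET7A1HG, whose exons share 27.9% of their length with LINC02603 on the opposite strand, it was 9.13 and 5.73 times. MIR497HG, the host of miR-497 and miR-195, had 0 pooled reads in both libraries but 444 and 738 reads over its strand counts, and 38.2% of its exon length overlaps C17orf49 and 16.1% the read-through gene RNASEK-C17orf49 on the opposite strand. MIR302CHG, the host of the embryonic miR-302 and miR-367 cluster, had 7 pooled reads in REH and 6 in 697, and 56.7% of its exon length overlaps LARP7. Because the reads in these libraries were split evenly over the strands, reads of a host and of its partner on the other strand cannot be told apart in the strand counts. MIR3677HG shares 11.3% of its exon length with RNPS1 on the opposite strand. Its strand counts summed to 1.44 times the pooled count in REH and 1.46 times in 697. No level is given for MIR497HG and MIR302CHG. The pooled levels of hosts with shared exons, among them MIR762HG, MIRLET7A1HG and MIR3677HG, cover only the exon stretches that they do not share.

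**Figure D3:**
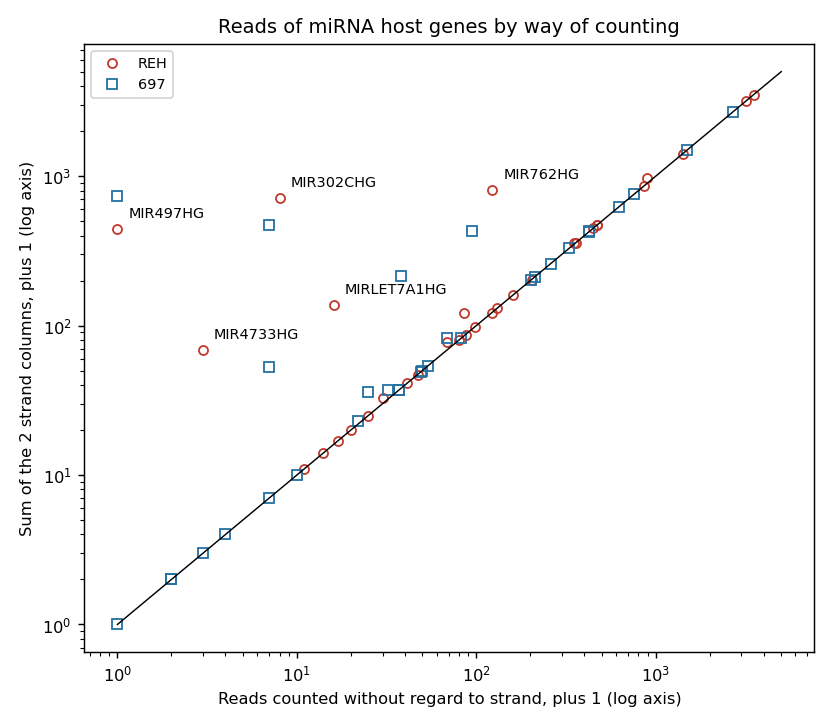
Reads counted without regard to strand (x axis, plus 1, log scale) against the sum of both strand counts (y axis, plus 1, log scale) in REH (circles) and 697 (squares). Host genes with at least 10 reads in a pooled count or in a strand count of either library are shown. On the line the counts are equal; the 5 labelled genes lie well above it, among them MIR762HG with a sum 6.62 times the pooled count in REH.

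MIR4435-2HG had 3 reads in each library, and its near-identical copy CYTOR had 1 in REH and 0 in 697. Reads that fit both places equally well are not part of the counts, so the level of this pair is uncertain.

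The nearest protein-coding neighbors within 100 kb were compared with the host genes beside them. For 25 host genes with a compared neighbor, 46 pairs were available. The 5 host genes past the threshold toward REH had 9 such neighbors, of which 2 were also past it toward REH. These were SERPING1, the complement C1 inhibitor gene 18853 bases from MIR130AHG, with 1646 reads in REH against 2 in 697, a log2 ratio of 8.92, and MIB1. MIR133A1HG lies inside MIB1 and its reads cannot be told apart from unspliced MIB1 RNA, so both ratios may rest partly on the same RNA. YPEL4, which overlaps MIR130AHG on the opposite strand, had a log2 ratio of 1.89 and CLP1 one of 0.43. MIR210HG had 2 neighbors and neither was past the threshold. The other 19 host genes had 35 neighbors, of which 7 (20.0%) were past it toward REH and 3 (8.57%) toward 697. Over all genes compared these shares were 12.5% and 8.15%, and with so few pairs the counts in either direction are a description only.

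Several neighbors thus differed far more than the host gene beside them. TSPOAP1, 2084 bases from MIR142HG on the same strand, had 50259 reads in REH and 1011 in 697, a log2 ratio of 5.19, against 0.79 for MIR142HG. Its antisense gene TSPOAP1-AS1 had a log2 ratio of 1.53. FBXW7, a ubiquitin ligase subunit gene that starts 172 bases from MIR4453HG on the opposite strand, had 2599 reads in REH and 12566 in 697. Its log2 ratio of -2.72 (-2.78 to -2.66) stood beside -0.30 for MIR4453HG. ABCA3, a lipid transporter gene 2463 bases from MIR3677HG, had 1942 and 9 reads (7.23), and SKIDA1, 16215 bases from MIR1915HG, had 83 and 0 reads. CD34, a marker of early progenitors 1857 bases from MIR29B2CHG, had 26 and 0 reads. NR6A1, a nuclear receptor gene that overlaps MIR181A2HG on the opposite strand, had 225 and 20 reads (3.02) beside -0.36 for the host. Toward 697, EFEMP1, an extracellular matrix gene 39052 bases from MIR217HG, had 1798 and 5916 reads (-2.16), and CDH26, a cadherin gene 53650 bases from MIR646HG, had 22 and 116 reads (-2.82).

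**Figure D4:**
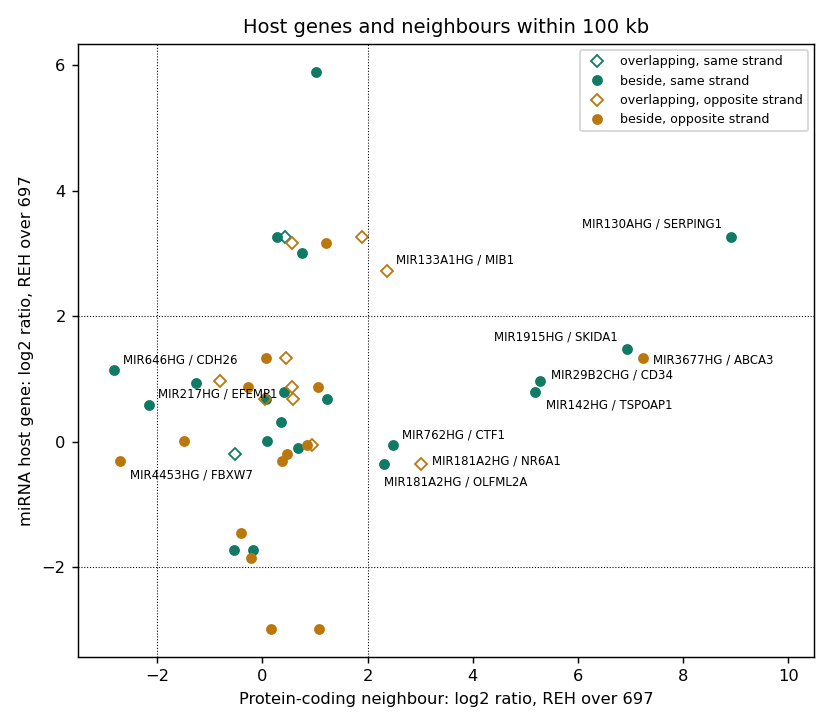
log2 ratio of REH over 697 of each host gene (y axis) against that of its nearest protein-coding neighbors within 100 kb (x axis), for the 46 pairs in which both were compared. Dotted lines mark the threshold of 2 in size, diamonds are overlapping genes, circles are genes beside the host, and color gives the relative strand; SERPING1, ABCA3, SKIDA1, CD34 and TSPOAP1 lie far right at ratios of 5.19 to 8.92, while the hosts beside them lie between 0.79 and 3.26.

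The genes of the miRNA pathway itself lay within the threshold. Of 31 genes for the cutting, export, loading and tailing of miRNAs, 29 were compared and 0 passed the threshold in either direction. Their median log2 ratio was -0.08 and their range -1.29 (TSNAX) to 0.95 (AGO1). DROSHA, the nuclear enzyme that cuts the hairpin free, had a log2 ratio of 0.31, its partner DGCR8 one of 0.01, and DICER1, which removes the loop, one of -0.04. LIN28A and LIN28B, which block let-7 processing, had at most 6 reads and were not compared.

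Among 15 transcription factor genes known to act on miRNA host genes, 2 were past the threshold toward REH and 2 toward 697, which is 13.3% each way beside 12.5% and 8.15% of all genes. HIF1A, the hypoxia factor known to induce miR-210, had 44.4 CPM in REH against 216 CPM in 697, a log2 ratio of -2.28, beside -2.98 for MIR210HG. NFKB1, a subunit of the factor that induces miR-155 and miR-146a, had 44.1 and 283 CPM (-2.68), beside -1.85 for MIR155HG and 0.94 for MIR3142HG, whereas the other subunit genes had ratios of 0.03 (RELA), 0.51 (REL), 0.18 (RELB) and -0.40 (NFKB2). MYC, which induces the miR-17 cluster, had 244 and 722 CPM (-1.56), beside -0.85 for MIR17HG. SPI1, which encodes the myeloid and B-cell factor PU.1, had 2810 reads in REH and 19 in 697 (6.73), and MYCN had 24 and 0 reads. With 1 library per line no relation between these values could be tested.

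Related miRNAs are also made from genes that are not named as host genes. Of 14 such transcripts compared, 2 (14.3%) were past the threshold toward REH, beside 12.5% of all genes, and 0 toward 697. They were EGFL7, the host of miR-126, with 5477 reads in REH against 174 in 697, a log2 ratio of 4.53, and CTDSPL, a host of miR-26a, with 926 and 123 reads (2.46). MCM7, which hosts the miR-106b to miR-25 cluster related to that of MIR17HG, had a log2 ratio of -0.78, and DLEU2, the host of miR-15a and miR-16-1, one of -0.67.

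Genes known as targets of the hosted miRNAs were listed in 7 groups of 4 to 9 compared genes, too few to set their shares against the 12.5% and 8.15% of all genes past the threshold. For the miR-17 to miR-92 cluster 0 of 7 passed the threshold, with BCL2L11, which encodes the pro-apoptotic BIM, at a log2 ratio of -0.78. For miR-155, 1 of 7 passed it, namely SPI1, while INPP5D, which encodes the phosphatase SHIP1, had a ratio of 1.08. TP53INP1 (-1.63) and JARID2 (-0.89) went the other way. Of these 7 genes, 4 had a ratio above 0 and 3 below, with a median of 0.17. For miR-146a 0 of 4 passed the threshold. For miR-34a 2 of 7 did, CDK6 (3.49) and CCND1 (3.19), and for miR-29 3 of 9 did, TET1 (8.13), TET2 (9.59) and CDK6. Among let-7 targets HMGA2 (274 and 0 reads) and IGF2BP1 (26904 and 6 reads) were past it toward REH and TRIM71 (65 and 516 reads) toward 697, of 6 compared. Among the 7 compared for miR-125b and miR-99 or miR-100, PRDM1, the plasma cell regulator, was past it toward 697 (-2.49). The mature miRNAs were not measured, and their part in these values was not tested.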

How the data were processed

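The deposited files hold raw read counts per gene for 1 library of REH and 1 of 697, not normalized, which the authors made with STAR. The labels name hg19 and stranded, ribodepleted libraries, whereas the study's methods name hg38 and poly(A) selection, and the annotation release is not given in the sources used here. Counts regardless of strand were used. Gene IDs were matched to GENCODE 44 (51996 matched, 5777 did not), and positions are those of that release on GRCh38, not the authors' coordinates.

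Genes that reached 10 reads in a library were compared. Totals were scaled by edgeR 4.0.16 (R 4.3.3) with TMM, the trimmed mean of M-values, giving factors of 1.11 (REH) and 0.899 (697), and CPM and log2 ratios (0.5 reads added) were computed. Counting intervals (95%) are Clopper-Pearson intervals of the fraction of a gene's reads that REH gave, turned into ratios. The study's test, DESeq2, needs replicates, so no p-value is given. Alternatives were unscaled totals, size factors of DESeq2 1.42.0, TMM from protein-coding genes, each strand's counts, minimums of 1 and 50 reads, 5 reads added, a threshold of 1 and another exon length. The computation was tested on simulated data.

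The host genes, their classes and the gene lists were chosen with earlier results of these data known. Host genes with at least 10 reads may be named, and those with at least 100 reads, or past the threshold of 2 on the log2 scale, are given in full. Of the other lists, counts and selected members are given. A gene of these lists is not reported here. Mature sequences came from RefSeq (GRCh38.p14), for hosts past 100 reads. The table had no entry for miR-3667 and, of miR-130a, only hsa-miR-130a-5p. The remaining steps ran in Python 3.11.15 (matplotlib 3.10.9, pandas 2.3.3, scipy 1.17.1).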

Additional observations from a re-analysis of the deposited data

Results flagged for a closer look

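Reads of 3 host genes that the pooled counts left out or nearly left out appeared in the counts per strand, which the comparison did not use. MIR497HG had 0 pooled reads in both libraries but 228 reads on its own strand and 216 on the opposite strand in REH, and 416 and 322 in 697. MIR302CHG had 7 pooled reads in REH and 6 in 697, against 349 reads on its own strand in REH and 241 in 697. MIR4733HG, of whose exon length 29.1% overlaps exons of NF1, had 2 pooled reads in REH and 6 in 697, against 34 on its own strand in REH and 28 in 697. Each of these values is above the 3 reads that a count of 0 allows. The opposite strand held about as many reads at MIR302CHG (365 in REH, 226 in 697) and MIR4733HG (34 and 24), and the overlapping LARP7 and NF1 genes had 2961 and 6768 pooled reads in REH and 2064 and 4280 in 697. Whether any of these reads came from the host genes was not tested.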

How the results depend on the processing

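The count of host genes higher in REH (6) ranged from 3 to 9 over the alternatives, that of host genes higher in 697 (1) from 1 to 6, and the median log2 ratio (0.59) from 0.17 to 0.90. The count toward 697 was 6 of 50 with a minimum of 1 read and 4 with a threshold of 1, and the count toward REH was 3 of 20 with a minimum of 50 reads, which left out MIR4432HG, MIR9-1HG and MIR133A1HG by construction. Of 19 log2 ratios of single host genes, 0 changed sign under DESeq2 size factors, TMM from protein-coding genes or 5 reads added, 3 did under unscaled totals (MIR762HG, MIR600HG and MIR4453HG) and 1, MIR762HG, did in each strand's counts. With 5 reads added 2 of the 19 fell under the threshold. The 19 host genes are those with at least 100 reads or past the threshold. The other host genes compared were not part of these counts. Among them, MIRLET7IHG had a log2 ratio of 0.01 in the pooled counts, 0.67 on its own strand and -0.67 on the opposite one. Unscaled totals moved the median of all genes by 0.31, to 0.36. No paired analysis was possible because there is only 1 library of either line. Depth limits the host genes with few reads, and intervals cover counting error only.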
